A study of Mus musculus with 18 samples.

Results

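Astrocytes are the glial cells that clear neurotransmitter from the synapse, buffer potassium and water, feed neurons and cover blood vessels with their endfeet. Their markers were examined here as a given list of 37 genes, commonly used as markers of the cell type. All 37 matched 1 Ensembl gene each, and all 37 were among the 17545 genes tested, of 38561 genes counted. Total RNA came from frontal cortex, striatum and hippocampus of adult wild-type (WT) mice and of Pcm1-/- littermates, both on a C57 Bl6J background, with 3 libraries for each genotype in each region. Pcm1 encodes a scaffold protein of centriolar satellites, the granules around the base of cilia. The mutants carry a germline gene trap from the embryonic stem cell line E14Tg2a.4 and were backcrossed to C57BL/6J for 3 generations or more. Whole tissue was sequenced, in which fewer astrocytes and less RNA per astrocyte cannot be told apart.

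Astrocytes take up glutamate through membrane transporters, turn it into glutamine and return that to neurons. They pass ions and small molecules to each other through gap junctions, and they secrete lipid carriers, matrix proteins and signalling precursors. Their genes are known to differ from one brain region to another and to respond to injury, hormones and metals.

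Each library held 24950537 to 33405081 counts on genes, and 86.8% to 89.2% of its counted reads fell on a gene. Levels are given below as CPM, counts scaled to a common library size with TMM factors. Pcm1 itself lay between 120 and 172 CPM in the 9 WT libraries and between 11.8 and 17.6 CPM in the 9 mutant libraries, so each library followed its genotype label. The region labels also held: summed striatal neuron markers reached 3656 CPM or more in striatum and at most 138 CPM elsewhere, and summed hippocampal neuron markers reached 832 CPM or more in the hippocampus and at most 278 CPM elsewhere. WT striatum replicate 3 stood apart, with 6170 CPM of choroid plexus markers against 34 to 174 CPM in the other 5 striatal libraries. Each group held 1 male, by its Y-linked reads.

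Promoter sequences are shown for Agt and Hes5, which had the largest rise and the largest fall of the 37 genes in the WT hippocampus against the cortex. They are also shown for the neighbouring metallothioneins Mt1, Mt2 and Mt3, a family whose members differed in their calls: by edgeR Mt1 alone passed the test without a mouse block in striatum and all 3 in the hippocampus. Of the 37 genes, 33 had a promoter window in RefSeq (GRCm38.p6). Each line gives the 250 bases before the annotated start, written 5′ to 3′ on the strand of the gene. Capitals mark the metal response element core (TGCACNC or TGCGCNC, both strands) in the metallothioneins.
Mt1 (chr8:94178839-94179088, plus strand): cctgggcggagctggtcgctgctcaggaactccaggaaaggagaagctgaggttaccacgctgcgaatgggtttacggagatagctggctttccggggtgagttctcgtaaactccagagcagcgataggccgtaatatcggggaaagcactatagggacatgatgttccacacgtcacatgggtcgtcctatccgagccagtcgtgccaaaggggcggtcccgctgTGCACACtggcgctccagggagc
Mt2 (chr8:94172368-94172617, plus strand): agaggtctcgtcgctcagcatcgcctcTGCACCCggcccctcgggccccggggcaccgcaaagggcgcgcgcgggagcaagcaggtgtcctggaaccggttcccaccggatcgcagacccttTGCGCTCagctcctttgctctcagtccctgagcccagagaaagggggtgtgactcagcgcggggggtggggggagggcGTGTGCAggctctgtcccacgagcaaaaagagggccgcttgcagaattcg
Mt3 (chr8:94152357-94152606, plus strand): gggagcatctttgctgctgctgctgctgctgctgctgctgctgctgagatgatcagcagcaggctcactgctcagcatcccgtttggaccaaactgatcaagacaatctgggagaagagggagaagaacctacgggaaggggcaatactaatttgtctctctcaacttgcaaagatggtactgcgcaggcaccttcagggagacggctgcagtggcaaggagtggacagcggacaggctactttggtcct
The core had 1 match in the Mt1 window, 3 in Mt2 and 0 in Mt3. Bases outside these windows were not searched, so these are not counts for the whole promoters. Among all 32851 windows of that length, 10.4% held TGCACNC and 12.5% held TGCGCNC. Capitals in the next pair of lines mark a STAT site (TTCCNNGAA) in Agt and the RBPJ core of Notch target genes (TGGGAA) in Hes5, again on both strands.
Agt (chr8:124569707-124569956, minus strand): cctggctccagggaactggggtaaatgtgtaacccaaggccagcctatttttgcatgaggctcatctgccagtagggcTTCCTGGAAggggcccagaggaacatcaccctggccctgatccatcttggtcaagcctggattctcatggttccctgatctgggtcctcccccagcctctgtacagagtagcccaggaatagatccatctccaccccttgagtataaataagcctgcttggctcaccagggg
Hes5 (chr4:154960673-154960922, plus strand): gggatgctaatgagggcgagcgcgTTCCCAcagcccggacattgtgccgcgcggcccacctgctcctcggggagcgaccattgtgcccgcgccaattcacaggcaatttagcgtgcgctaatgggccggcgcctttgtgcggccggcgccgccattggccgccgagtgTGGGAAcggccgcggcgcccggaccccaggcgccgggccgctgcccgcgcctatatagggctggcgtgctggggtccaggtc
The Agt window had 1 match, and 4.06% of all windows held that motif. The Hes5 window had 2 matches to the RBPJ core, which 21.6% of all windows held. A match is a match of letters only, and binding was not measured in this study.

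Per kilobase of exon, the astrocyte genes covered a wide range of levels. Apoe, the main lipid carrier of the brain, had the highest mean over the 18 libraries at 601 CPM per kb, followed by Glul (glutamine synthetase) at 461, the glutamate transporter Slc1a2 (GLT-1) at 337 and Clu (clusterin) at 248 CPM per kb. At the lower end were the peptide transporter Slc15a2 at 3.42, the cystathionine synthase Cbs at 2.63 and the phospholipase Plcd4 at 1.60 CPM per kb. Of the 37 genes, 19 lay in the top 10% of all tested genes on this scale. The smallest count in any library was 36 reads, for the Notch effector Hes5, and every other member had at least 127 reads in each library. Between libraries of a group, the coefficient of variation had a median of 12.5% over the members. The filament gene Gfap varied most, at 33.1%, and F3 (tissue factor) least, at 4.93%.

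Among WT regions, most of these genes differed by a modest factor. The highest region mean was less than 1.5 times the lowest for 24 of 37 genes and more than 2 times the lowest for 6 of them. The hippocampus held the highest WT mean for 17 genes, the frontal cortex for 11 and the striatum for 9. The frontal cortex was the lowest region for 21.

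Against the WT frontal cortex, the WT striatum differed in 12 of 37 astrocyte genes, 10 higher (20.6% of all genes) and 2 lower (20.9%), by edgeR's quasi-likelihood test with an adjusted p under 0.05. Over all genes, 41.5% passed the same test. The WT hippocampus differed from the WT frontal cortex in 16, 13 higher (14.5%) and 3 lower (15.3%), where 29.8% of all genes passed. The WT hippocampus and striatum differed in 8, 5 higher (14.8%) and 3 lower (14.4%) in the hippocampus, where 29.2% of all genes passed. The median log2 differences of the 37 genes were 0.09, 0.25 and 0.11 in that order. The first was 0.02 without WT frontal cortex replicate 3 and 0.21 without WT striatum replicate 1, and 0.19 without WT frontal cortex replicate 1. The second was 0.16 without WT hippocampus replicate 1 and 0.32 without WT hippocampus replicate 3. The last turned to -0.01 without WT striatum replicate 3 or without WT hippocampus replicate 1. The medians of all genes were 0.02, -0.01 and -0.01. Against striatum, 6 genes had every hippocampal library above every striatal one (20.3% of all genes), and 16 of 37 had a log2 difference below 0 (51.1%). The 3 regions came from the same mice. With the mouse as a block, 18 genes passed for striatum against cortex (48.1% of all genes in that fit), 21 for hippocampus against cortex (37%) and 12 for hippocampus against striatum (35.1%). All calls of the fit without the block were among them, and the block added Aqp4, Slc15a2, Vim, Aldh1l1, Ppp1r3c and Mt2 in the first comparison, Gja1, Atp1b2, Plcd4, Ntsr2 and Sox9 in the second, and Gja1, Gfap, Vim and Sox9 in the last. The values and group counts that follow are from the fit without the block. In 1 fit of all 18 libraries, 25 genes passed for hippocampus against cortex (37.7% of all genes). Single libraries moved the counts, and the share of all genes with them. For striatum against cortex 7 genes passed without WT striatum replicate 2 (35.2%) and 7 without WT frontal cortex replicate 2 (33.5%). For hippocampus against cortex 9 passed without WT frontal cortex replicate 2 (21.2%), and for hippocampus against striatum 5 without WT striatum replicate 1 (22.9%) and 5 without WT hippocampus replicate 1 (28.3%). Leaving out 1 WT mouse in every region gave 10 (31.1%), 14 (15.9%) and 4 (20.2%).

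**Figure D1:**
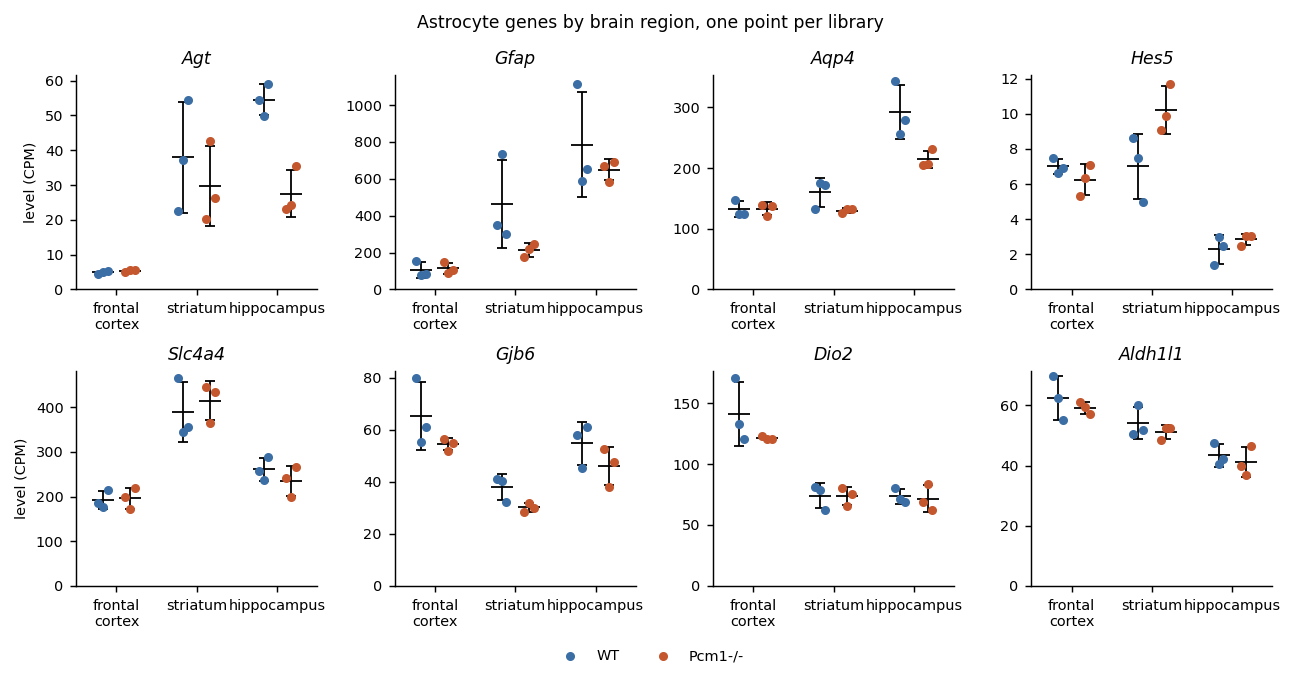
Levels in CPM (vertical axes, from 0) of 8 astrocyte genes in each library, by region (horizontal axes) and genotype. Points are libraries, and horizontal and vertical bars give the mean and SD of 3 libraries. Agt and Gfap are lowest in the frontal cortex, Hes5 is lowest in the hippocampus, and Slc4a4 is highest in the striatum in both genotypes.

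Agt (chr8:124556534-124569706), whose product angiotensinogen is the precursor of the angiotensins and is made by astrocytes in the brain, had the widest regional range. It stood at 4.45, 4.95 and 5.35 CPM in the WT frontal cortex, at 22.5, 37.1 and 54.4 CPM in striatum and at 54.6, 49.97 and 59.0 CPM in the hippocampus. No cortical library came near those of the other regions, while the striatal libraries spread widely and reached the hippocampal range in replicate 3. The log2 difference was 2.95 ± 0.28 (SE) for striatum against cortex and 3.47 ± 0.28 for hippocampus against cortex (edgeR adjusted p = 1.49e-05 and 1.38e-05). Between hippocampus and striatum it did not pass, with a log2 difference of 0.51 and an adjusted p of 0.146 (edgeR).

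Both intermediate filament genes were higher in the hippocampus than in the cortex. Gfap (chr11:102887336-102900912), the filament protein used to stain astrocytes, stood at 153, 77.4 and 85.0 CPM in the WT frontal cortex, at 352, 736 and 300.0 CPM in striatum and at 1113, 587 and 656 CPM in the hippocampus. All striatal and hippocampal libraries lay above all cortical ones, and those 2 regions overlapped each other. Its log2 differences from the cortex were 2.14 ± 0.39 in striatum and 2.90 ± 0.40 in the hippocampus (edgeR adjusted p = 0.00145 and 0.000463). Vim (vimentin), a filament shared with endothelial and ependymal cells, stood at 37.5, 24.2 and 28.4 CPM in the cortex and at 114, 44.4 and 75.6 CPM in the hippocampus, a log2 difference of 1.37 ± 0.31 (edgeR adjusted p = 0.0077).

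Of the 8 genes for water, ion and solute transport and gap junctions, 1 was higher (20.6% of all genes) and 1 lower (20.9%) in the striatum than in the cortex, and 2 were higher in the hippocampus (14.5%), without the mouse block. Aqp4, the water channel of the endfeet, stood at 343, 257 and 279 CPM in the WT hippocampus, at 133, 175 and 172 CPM in striatum and at 148, 124 and 124 CPM in the cortex. Every hippocampal library lay above every other WT library, by a log2 difference of 1.15 ± 0.14 from the cortex and 0.87 ± 0.14 from the striatum (edgeR adjusted p = 0.000174 and 0.000677). The bicarbonate cotransporter Slc4a4 had another order, with 466, 344 and 356 CPM in striatum, 258, 237 and 288 CPM in the hippocampus and 186, 177 and 215 CPM in the cortex. The 3 regions did not overlap, and the striatum exceeded the cortex by 1.01 ± 0.13 (log2, edgeR adjusted p = 0.00015). The hippocampus was lower than the striatum, with a log2 difference of -0.58 ± 0.13 (edgeR adjusted p = 0.00684). Gjb6 (connexin 30), a gap junction protein, was lowest in the striatum at 41.0, 40.4 and 32.1 CPM, against 80.0, 55.2 and 60.8 CPM in the cortex and 57.8, 45.4 and 61.0 CPM in the hippocampus. Its log2 difference from the cortex was -0.78 ± 0.16 (edgeR adjusted p = 0.00264). The hippocampal excess over the striatum, 0.53 ± 0.16 (edgeR adjusted p = 0.0296), was lost on leaving out any of 4 libraries or 1 mouse, with an adjusted p of up to 0.119. Gja1 (connexin 43), its usual partner, had log2 differences of 0.00, 0.32 and 0.32 in the 3 WT comparisons, and the hippocampal pair passed with the mouse block alone.

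The 6 secreted, matrix and calcium-binding genes were mostly higher outside the cortex. In the striatum 5 of 6 passed as higher (20.6% of all genes), namely Agt, Apoe, Clu, F3 and S100b, and in the hippocampus 4 of 6 (14.5%), the same without S100b. Apoe was 0.54 and Clu 0.44 higher (log2) in the striatum than in the cortex, and 0.53 and 0.62 higher in the hippocampus, with edgeR adjusted p between 0.00529 and 0.0241. Bcan (brevican), a matrix proteoglycan, passed in none of the 3 comparisons by edgeR. Of the metallothioneins, which bind zinc and copper, Mt1 was 0.78 higher in striatum and 0.88 higher in the hippocampus than in the cortex (log2, edgeR adjusted p = 0.0207 and 0.0159). Mt3, the brain-enriched member, had a log2 difference of 0.04 between striatum and cortex (edgeR adjusted p = 0.818) and was 0.46 higher in the hippocampus (edgeR adjusted p = 0.0197). Mt2 passed in the hippocampus, with a log2 difference of 0.91 and an edgeR adjusted p of 0.0499, and an opposite-strand gene overlaps it.

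Of the 7 enzymes, 1 was lower in the striatum (20.9% of all genes) and 2 were lower in the hippocampus (15.3%) than in the cortex, and none was higher without the mouse block. The block added Ppp1r3c, a glycogen-targeting phosphatase subunit, and Aldh1l1 in striatum, with log2 differences of 0.23 and -0.20, and Plcd4 in the hippocampus, with 0.51. Dio2, the deiodinase that turns thyroxine into active thyroid hormone, stood at 171, 133 and 120 CPM in the WT cortex, at 80.9, 78.7 and 62.2 CPM in striatum and at 80.0, 71.5 and 68.6 CPM in the hippocampus. The cortical libraries lay above all others, with log2 differences of -0.93 ± 0.14 in striatum and -0.95 ± 0.14 in the hippocampus (edgeR adjusted p = 0.00036 and 0.000604). Aldh1l1, a folate enzyme and a broad astrocyte marker, stood at 69.7, 62.5 and 55.3 CPM in the cortex, at 50.5, 60.2 and 51.7 CPM in striatum and at 47.6, 40.3 and 42.2 CPM in the hippocampus. It was lower in the hippocampus than in the cortex by a log2 difference of -0.53 ± 0.11 (edgeR adjusted p = 0.00386). Against the striatum the difference was -0.33 ± 0.11 (edgeR adjusted p = 0.0411), and it passed in 9 of 17 alternatives, with an adjusted p of up to 0.157 in the others.

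Among the receptors and transcription regulators, Hes5 (chr4:154960923-154962371), a Notch effector that is best known from neural stem cells, was the gene with the largest fall. Its WT levels were 7.49, 6.66 and 6.93 CPM in the cortex, 8.60, 7.49 and 4.99 CPM in striatum and 1.39, 3.00 and 2.45 CPM in the hippocampus. The hippocampal libraries lay below all the others, by a log2 difference of -1.62 ± 0.27 from either region (edgeR adjusted p = 0.00148 and 0.00113). Ntsr2, a neurotensin receptor, and Id3, an inhibitor of helix-loop-helix factors, were higher in the striatum than in the cortex by 0.41 and 0.81 (log2, edgeR adjusted p = 0.00869 and 0.00154). Fgfr3, a growth factor receptor, passed in none of the 3 WT comparisons with or without the mouse block. Sox9, a glial transcription factor, had log2 differences of 0.33 from the cortex and 0.26 from the striatum in the hippocampus, which passed with the mouse block and not without it.

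Genes that handle glutamate, GABA and amino acids had 1 call among 6 members in the hippocampus (29.8% of all genes) and 0 in striatum (41.5%) against the cortex. Slc1a2 stood at 5029, 4543 and 5112 CPM in the WT cortex, at 4801, 4091 and 3553 CPM in striatum and at 3630, 4199 and 3486 CPM in the hippocampus. Slc1a3 (GLAST), the other glutamate transporter of astrocytes, stood at 801, 646 and 732 CPM, 668, 678 and 546 CPM, and 656, 684 and 639 CPM in those regions. By edgeR neither transporter passed in any WT comparison, with the smallest adjusted p at 0.0515 for Slc1a2 in the hippocampus against the cortex, which DESeq2 called. Within this group of 6, Slc6a11 (GAT-3), a GABA transporter, was the only gene that passed. It stood at 297, 282 and 293 CPM in the WT hippocampus, above 163, 195 and 238 CPM in striatum and 203, 188 and 171 CPM in the cortex, with a log2 difference of 0.54 ± 0.12 from the striatum (edgeR adjusted p = 0.00732). Without 1 WT mouse that edgeR adjusted p was 0.0651, and that of Slc4a4 between these regions was 0.0512.

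Pcm1-/- striatum and cortex differed in 19 of the 37 genes (54.3% of all genes), and 14 of 37 had a log2 difference below 0 (48.2%). Hippocampus and cortex differed in 22 (41.5%), 16 higher (20.2%) and 6 lower (21.2%), and hippocampus and striatum in 16 (45.0%). With the mouse as a block these counts were 22 (56.4%), 24 (43.9%) and 16 (47.2%). The calls shared with WT in direction were 10 of 12, 14 of 16 and 7 of 8 WT calls, or 52.6%, 63.6% and 43.8% of the mutant calls. Slc6a11 was the WT call that turned sign, with a log2 difference of -0.03 ± 0.12 between mutant hippocampus and striatum. The order of all 3 regions was the same in both genotypes for 24 genes, the highest region for 27 and the lowest for 32. Shared calls and region order were counted for the 37 genes only. Without the share over all genes, these counts show nothing particular to astrocyte genes. Agt exceeded the mutant cortex by 2.49 ± 0.27 in striatum and 2.37 ± 0.27 in the hippocampus (log2, edgeR adjusted p = 2.05e-05 and 5.62e-05), and Gfap by 0.91 ± 0.17 and 2.50 ± 0.18 (edgeR adjusted p = 0.00117 and 2.17e-06). Hes5 was lower in the mutant hippocampus by -1.13 ± 0.15 from the cortex and -1.85 ± 0.15 from the striatum (log2, edgeR adjusted p = 0.000174 and 2.47e-06).

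**Figure D2:**
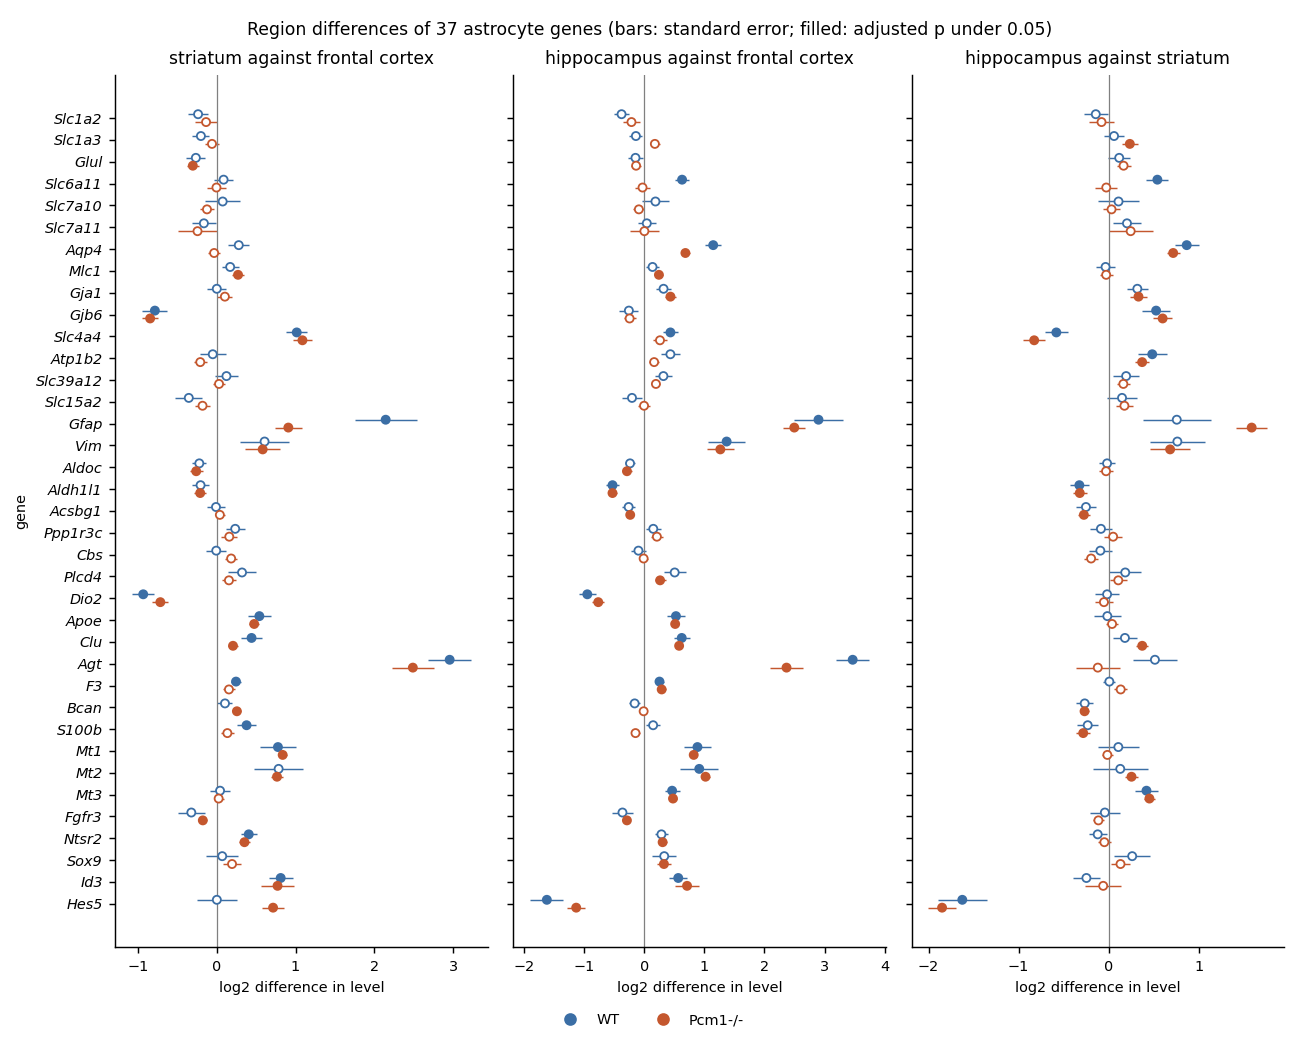
Log2 differences between regions (horizontal axes) for the 37 astrocyte genes (vertical axis, ordered by role), in WT mice and Pcm1-/- mice, with standard errors as bars. Filled points passed the edgeR test (12, 16 and 8 genes in WT and 19, 22 and 16 in Pcm1-/-). Over all comparisons together, though not in each, Agt, Gfap and Hes5 reach farthest from 0 in both genotypes.

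A further list of 35 astrocyte genes outside the 37 was read in the same WT comparisons. In the striatum 10 were higher (20.6% of all genes) and 8 lower (20.9%) than in the cortex, and in the hippocampus 9 were higher (14.5%) and 5 lower (15.3%). Against the striatum, 5 were higher (14.8%) and 5 lower (14.4%) in the hippocampus. Chrdl1, a secreted protein that matures synapses, had log2 differences of -1.95 in striatum and -3.13 in the hippocampus from the cortex (edgeR adjusted p = 1.84e-05 and 3.55e-06). Slc14a1, a urea transporter, was 1.20 and 1.68 higher there (log2, edgeR adjusted p = 0.0003 and 7e-05). Of 18 genes known from reactive astrocytes, 2 were higher in striatum (20.6% of all genes) and 7 in the hippocampus (14.5%) than in the cortex by edgeR and none lower. C3 and C4b, complement components that microglia and choroid plexus also make, led with log2 differences of 4.66 and 2.74 in the hippocampus (edgeR adjusted p = 0.000479 and 0.00266). Other cell types also differed between these regions. All 10 oligodendrocyte markers and at least 9 of 10 ependymal markers had log2 differences above 0 in both WT striatum and WT hippocampus against the cortex. Of all genes, 48.3% and 51.0% lay below 0 in these comparisons. Oligodendrocyte sums were 2121 to 2812 CPM in the cortex, 10106 to 10350 CPM in striatum and 5336 to 10591 CPM in the hippocampus. Choroid plexus sums were 8 to 13 CPM in the cortex and 2223 to 6459 CPM in the hippocampus. Thalamic neuron genes, a list written after these data were seen, summed to 59 to 68 CPM in the WT cortex. They summed to 101 to 210 CPM in the WT striatum and 245 to 546 CPM in the WT hippocampus. Their part in the differences was not tested.

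Between genotypes, none of the 37 astrocyte genes passed by edgeR in any region. In the frontal cortex edgeR called 0 of 37, where it called 1.74% of all genes, 1.41% as higher and 0.336% as lower. It called 0 in striatum, where 0.0285% of all genes were called and 0.0057% as lower, and 0 in the hippocampus, where these shares were 0.0171% and 0.0057%. DESeq2 called 0 in the frontal cortex, where it called 5.14% of all genes with an adjusted p. It called 3 in striatum (Glul, Apoe and Clu, all lower in mutants), where its share of all genes was 3.84%, and 3 for hippocampus (Slc6a11, Aqp4 and Agt, all lower), where it was 1.77%. At an unadjusted p under 0.05, edgeR gave 7 lower (7.47% of all genes) and 0 higher (7.84%) in the cortex. It gave 13 lower (6.98%) and 1 higher (6.54%) for the striatum, and 7 lower (5.06%) and 0 higher (4.84%) for the hippocampus.

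Most estimates were below 0. In Pcm1-/- cortex 28 of 37 genes were below WT (51.6% of all genes), as were 31 in striatum (50.6%) and 30 in hippocampus (50.1%). Their median log2 fold changes were -0.15, -0.16 and -0.17, and the medians of all genes were -0.01, 0.00 and 0.00. All 3 mutant libraries lay below all 3 WT libraries for 2 of 37 genes in cortex (9.28% of all genes), 13 in striatum (9.39%) and 8 in hippocampus (6.46%). The reverse held for 1 gene, Hes5 in striatum (9.6% of all genes). Aldoc, a glycolytic aldolase, Apoe and Glul were among the genes below WT in all 3 regions. Their log2 fold changes were -0.18, -0.26 and -0.22 in the cortex, -0.21, -0.31 and -0.25 in striatum and -0.24, -0.28 and -0.22 in hippocampus. None of these passed by edgeR with all libraries, while DESeq2 called Glul and Apoe in striatum, and edgeR called both in the cortex without WT replicate 3, where it called 4.7% of all genes.

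**Figure D3:**
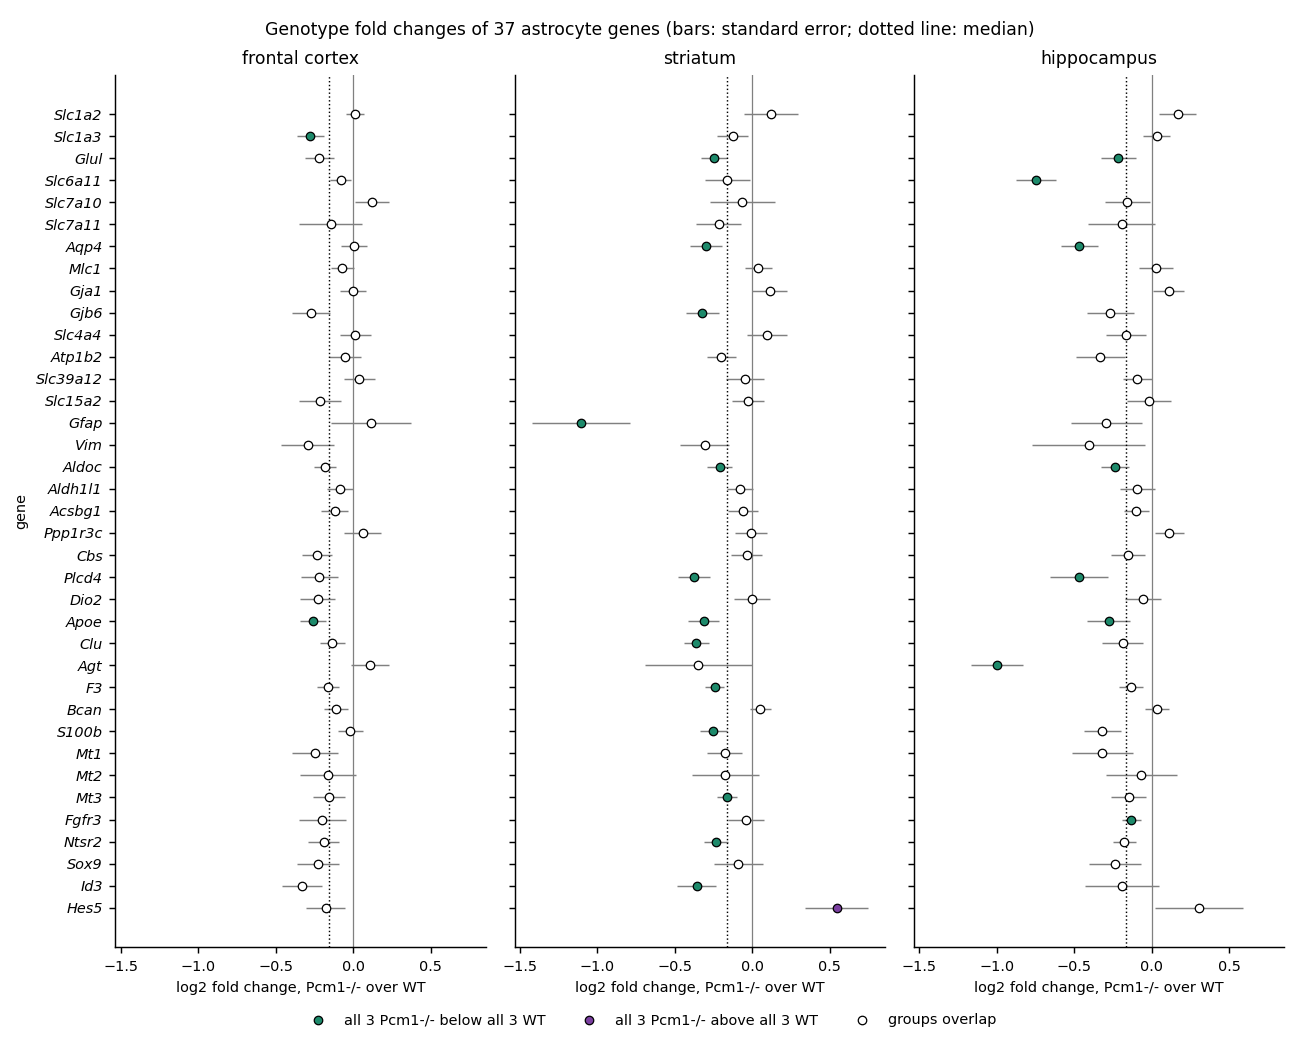
Log2 fold changes of Pcm1-/- over WT (horizontal axes) for the 37 astrocyte genes (vertical axis) in 3 regions, with standard errors as bars and the median as a dotted line (-0.15, -0.16 and -0.17). Filled points mark genes whose groups did not overlap, 2, 14 and 8 in number, and none passed the edgeR test.

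By the mouse numbers in the names of the deposited files, WT frontal cortex replicate 1, striatum replicate 2 and hippocampus replicate 1 came from the same mouse. It held the highest of the 6 values of its region for 31 of 37 genes in the cortex, 18 in striatum and 18 in the hippocampus, and for 11 genes in all 3 regions, among them Gfap, Vim, Aqp4, Apoe, Glul, S100b, Sox9 and the 3 metallothioneins. Without its library, the median log2 fold change between genotypes was -0.02 in the cortex (23 genes below WT), -0.10 in striatum (25 genes) and -0.11 in the hippocampus (28 genes). With lane as a term, the cortical median was -0.02 as well, and that library shared its lane with no other cortical library.

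In the frontal cortex Slc1a3 had the smallest p. It stood at 801, 646 and 732 CPM in WT and at 631, 547 and 631 CPM in mutants, with no overlap, and its log2 fold change was -0.28 ± 0.09 (edgeR adjusted p = 0.179). The 13 alternatives gave adjusted p between 0.026 and 0.445, the lowest with replicate number as a block, where 3.79% of all genes passed. Gfap stood at 146, 89.6 and 108 CPM in mutants and Aqp4 at 140, 121 and 138 CPM, both overlapping the WT cortical values given above, with log2 fold changes of 0.12 ± 0.26 and 0.00 ± 0.08. Slc1a2, at 4924, 5104 and 4831 CPM, and Aldh1l1, at 61.3, 59.3 and 57.3 CPM, overlapped WT as well.

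In the striatum Clu, a secreted chaperone, had the smallest p. It stood at 885, 980 and 1003 CPM in WT and at 694, 759 and 776 CPM in mutants, a log2 fold change of -0.36 ± 0.08 (edgeR adjusted p = 0.161, and 0.00106 with DESeq2). Gfap had the largest fold change, at 174, 222 and 247 CPM in mutants against 352, 736 and 300.0 CPM in WT, a log2 fold change of -1.11 ± 0.32 (edgeR adjusted p = 0.218). The groups did not overlap, and without WT replicate 2 the value was -0.60. Aqp4, at 125, 132 and 132 CPM in mutants, had a log2 fold change of -0.30 ± 0.10 (edgeR adjusted p = 0.273). Hes5 was the 1 gene with every mutant library above every WT library, at 9.07, 9.90 and 11.7 CPM against 8.60, 7.49 and 4.99 CPM (edgeR adjusted p = 0.31). Slc1a2 at 5463, 3408 and 4629 CPM, Slc1a3 at 570, 543 and 618 CPM and Aldh1l1 at 48.4, 52.4 and 52.6 CPM overlapped WT.

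In the hippocampus Agt had the smallest p. It stood at 23.1, 24.2 and 35.4 CPM in mutants, below the 54.6, 49.97 and 59.0 CPM of WT without overlap, a log2 fold change of -0.999 ± 0.17 (edgeR adjusted p = 0.383). It passed in 2 of 13 alternatives, DESeq2 (adjusted p = 2.14e-05) and the fit without Pcm1-/- replicate 3 (adjusted p = 0.029). Slc6a11 stood at 152, 163 and 211 CPM in mutants, below 297, 282 and 293 CPM in WT (log2 -0.74 ± 0.13, edgeR adjusted p = 0.383), and it was called by DESeq2, by the fit of all 18 libraries (1.17% of all genes) and without Pcm1-/- replicate 3 (0.0627%). Aqp4 stood at 206, 207 and 231 CPM, below all WT values (log2 -0.47 ± 0.12, edgeR adjusted p = 0.396, and 0.0228 with DESeq2). Gfap at 671, 583 and 693 CPM, Slc1a2 at 4262, 4577 and 4019 CPM, Slc1a3 at 668, 742 and 640 CPM and Aldh1l1 at 39.9, 36.9 and 46.6 CPM overlapped WT, and the Gfap value of -0.29 turned to 0.05 without WT replicate 1. Agt and the 3 metallothioneins lie on chromosome 8, as does Pcm1 (chr8:41239752-41332344).

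Genes of neighbouring tissue also differed between hippocampal libraries. Tcf7l2, a transcription factor of thalamic neurons, stood at 108, 48.3 and 106 CPM in WT hippocampus and at 6.8, 6.8 and 51.0 CPM in mutants. Prkcd stood at 177, 57.7 and 133 CPM against 44.1, 34.1 and 84.4 CPM, and Slc17a6, the glutamate transporter of subcortical neurons, at 83.8, 56.2 and 117 CPM against 21.97, 17.2 and 53.1 CPM. All 8 genes of the thalamic list were lower in mutant hippocampus, as were 50.1% of all genes. That list was written after these data were seen, so its count is not a test. Its summed levels were 245 to 546 CPM in WT and 103 to 268 CPM in mutants. Mutant replicate 3, with 268 CPM of thalamic genes, had the highest Agt, Slc6a11 and Aqp4 of its group. WT replicate 2 had less thalamic RNA than that library, 245 CPM, and more of all 3 astrocyte genes. In striatum, WT replicate 3 had 210 CPM of thalamic genes against 83 to 102 CPM in the others and the most Agt and Slc6a11, while Aqp4 was highest in WT replicate 2. Mutant striatum replicate 2, with 88 CPM of thalamic genes, was second in both Agt and Slc6a11. Their part in the result was not tested.

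**Figure D4:**
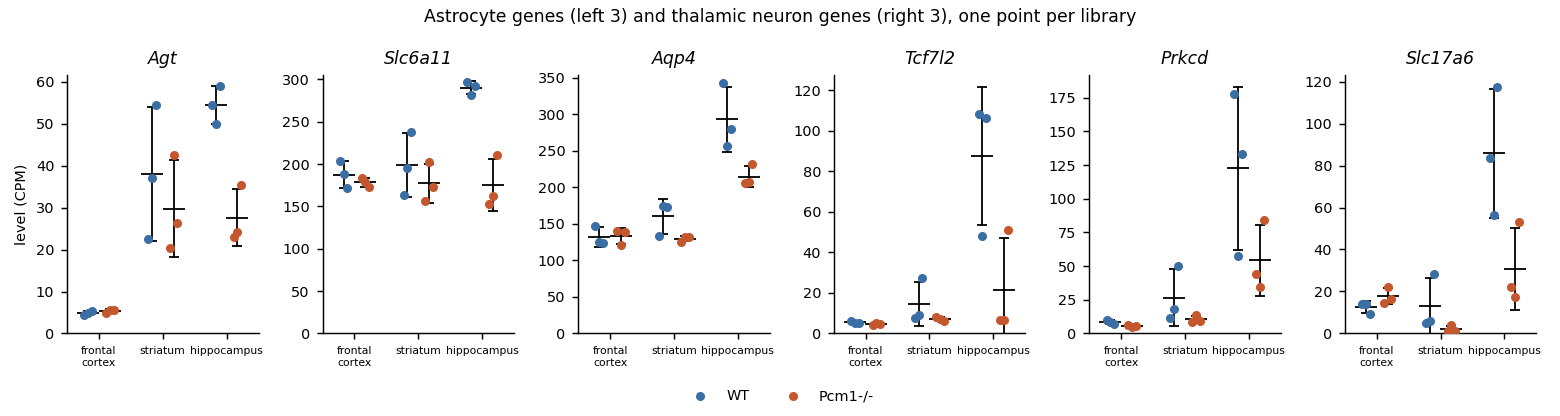
Levels in CPM (vertical axes, from 0) of the astrocyte genes Agt, Slc6a11 and Aqp4 and of the thalamic neuron genes Tcf7l2, Prkcd and Slc17a6 in each library, by region (horizontal axes) and genotype, with the mean and SD of 3 libraries as bars. In the hippocampus WT libraries lie mostly above mutant libraries for all 6 genes, without overlap for the 3 astrocyte genes and for Slc17a6.

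Several marker lists of other cell types had medians below 0 in mutants, though few genes passed the test. All 10 oligodendrocyte markers were lower in every region, with median log2 fold changes of -0.28, -0.40 and -0.56 in cortex, striatum and hippocampus, and all 10 microglia markers, with -0.30, -0.39 and -0.23. Oligodendrocyte precursor markers had medians of -0.31, -0.18 and -0.09, with 1 call (Olig1) in the cortex, where 1.74% of all genes were called. Their sums did not overlap in any region. They were 229 to 265 CPM in WT and 191 to 210 CPM in mutant cortex, and 310 to 349 and 264 to 294 CPM in striatum. In the hippocampus they were 263 to 315 and 238 to 262 CPM. Endothelial and mural markers had medians of -0.33, -0.20 and -0.42, with 1 call (Acta2) in the cortex, against 1.74% of all genes. Their sums did not overlap in cortex, at 327 to 434 CPM in WT and 298 to 318 CPM in mutants, or hippocampus, at 313 to 391 and 254 to 288 CPM, and overlapped in striatum. Blood genes, mainly globins, summed to 109 to 175 CPM in WT cortex and 36 to 79 CPM in mutant cortex, to 125 to 216 CPM and 33 to 70 CPM in the hippocampus, and to 72 to 227 CPM and 44 to 92 CPM, which overlap, in the striatum. Other lists went the other way in striatum: 9 of 10 ependymal markers and all 5 striatal neuron markers were above WT there, with medians of 0.39 and 0.29 and overlapping sums of 60.5 to 83.6 against 50.8 to 81.4 CPM and 4176 to 4428 against 3656 to 4180 CPM. Neuron markers had medians of 0.07, -0.03 and 0.04. Their sums lay above WT without overlap in the cortex, at 14373 to 14741 CPM in mutants against 12859 to 13998 CPM in WT. In striatum and hippocampus the neuron sums overlapped. Summed over the 37 astrocyte genes, the levels were 12557 to 14648 CPM in WT and 12345 to 12800 CPM in mutant cortex, 12503 to 14317 and 11493 to 13295 CPM in striatum, and 13259 to 15610 and 13128 to 13688 CPM in the hippocampus, so this sum overlapped in all 3 regions. Slc1a2 alone accounted for 3408 to 5463 CPM of it. Summed by role, the secreted, matrix and calcium-binding genes did not overlap in any region, with 1952 to 2440 CPM in WT and 1836 to 1950 CPM in mutant cortex, 2720 to 3243 and 2292 to 2513 CPM in striatum, and 2740 to 3621 and 2566 to 2706 CPM in the hippocampus. The sums of the receptors and regulators lay below WT without overlap in striatum and hippocampus, those of the filaments in striatum, and those of the enzymes and of the water, ion and solute group in the hippocampus. The glutamate, GABA and amino acid group and the metallothioneins overlapped in every region. The 35 further astrocyte genes summed to 6195 to 6538 CPM in WT and 5405 to 5918 CPM in mutant striatum, without overlap, and overlapped elsewhere. Of the 35 further astrocyte genes 0 were called by edgeR in any region, where 1.74%, 0.0285% and 0.0171% of all genes were. At an unadjusted p under 0.05, 8, 6 and 8 were lower (7.47%, 6.98% and 5.06% of all genes) and 2, 4 and 0 higher (7.84%, 6.54% and 4.84%). Of the 18 reactive astrocyte genes 0 were called by edgeR in any region, with 13, 16 and 18 below WT (51.6%, 50.6% and 50.1% of all genes) and medians of -0.10, -0.48 and -0.38, and their summed levels were highest in the same WT mouse in every region, at 173, 449 and 592 CPM. Whether these lists share a source was not tested.

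The genotype difference itself was compared between regions with an interaction term over all 18 libraries. None of the 37 astrocyte genes passed by edgeR (0.0114% of all genes did) or by DESeq2 (0.649%). At an unadjusted p under 0.05 there were 4, namely Slc6a11, Aqp4, Gfap and Agt, where 5.54% of all genes were. Slc6a11 had the smallest, with fold changes of -0.08 in the cortex, -0.16 in striatum and -0.74 in the hippocampus (log2) and an edgeR adjusted p of 0.575, which ranged from 0.0892 to 0.853 over the alternatives. That fit took no account of the mice, each of which gave all 3 regions. With the mouse as a block edgeR called 0 of 37 and 0 of all genes, with 5 members at an unadjusted p under 0.05 (Gfap, Slc6a11, Aqp4, Slc4a4 and Agt), where 7.89% of all genes were. Gfap had the smallest edgeR adjusted p there, at 0.237, and that of Slc6a11 was 0.315. A difference between regions in the genotype effect on these genes was not detectable in either fit with 3 libraries per group.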

How the data were processed

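The authors trimmed reads with Trim Galore and cutadapt, aligned to GRCm38 with STAR, and used HTSeq to count reads per Ensembl gene. Raw counts were deposited, 1 library per file. The library kit keeps strand, but tool versions and the strand setting of the counting are not given in the sources used here. Of the members, 15 overlap a gene on the other strand, and 4 of these (Glul, Slc7a10, Plcd4, S100b) a protein-coding one, so their values are uncertain to that extent. Positions are from GENCODE (GRCm38), promoter windows from RefSeq.

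Genes with at least 10 reads in any library (17545) were tested with edgeR 4.0.16 in R 4.3.3 (TMM, quasi-likelihood test, Benjamini-Hochberg over all tested genes, threshold 0.05): genotypes within a region, regions within a genotype (9 libraries in 1 fit), and their interaction (18 libraries). DESeq2 1.42.0 was the other tool. Code was tested on simulated data. For genotypes within a region, p-values measure the spread among 3 mice per group. The region and interaction fits without the mouse block treated libraries of the same mouse as independent.

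Replicate numbers did not pair the genotypes in the cortex and striatum (lowest correlation of same-numbered libraries 0.0308 and -0.346). They met the rule of 0.1 in the hippocampus (0.124 to 0.609), where the block left 0 calls. Differently numbered hippocampal libraries of the genotypes correlated at -0.551 to 0.311, so a pairing by number was not established there either. Regions came from the same mice, by the numbers in the file names; these correlated at 0.0426 to 0.539. Replicates of a group differed beyond counting noise. Values in every library were given for the usual markers Gfap, Aqp4, Aldh1l1, Slc1a2 and Slc1a3, for the smallest p in each genotype comparison, and for the 3 largest called rises and falls in each WT region comparison; other members, Hes5 between genotypes and Slc6a11 between genotypes were named after their values were seen, as were the promoters shown. The thalamic list was written after the data were seen. The members and the other lists were chosen with earlier results of these data known.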

Additional observations from a re-analysis of the deposited data

How the results depend on the processing

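The comparisons rest on 3 libraries per group. A single WT mouse had the highest summed level of the astrocyte genes in every region, and choroid plexus and thalamic RNA differed between libraries of a group; their part was not tested. In the striatum no fit with lane was run, since all WT libraries share a lane that no mutant library has; there lane and genotype cannot be told apart. The alternative without 1 WT mouse in every region and the mouse block in the interaction, which left its 0 calls, were chosen after seeing the data.

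Genotype calls moved as follows: the replicate block gave 1 in the cortex (Slc1a3), DESeq2 3 each for striatum and hippocampus, and 1 fit of all 18 libraries 1 in the hippocampus (Slc6a11). In the cortex the numbers are not a pairing of the mice, and the block changed no call in the other 2 regions. Leaving out 1 library gave 0 to 2 calls in cortex (Glul and Apoe without WT replicate 3), 0 to 0 in striatum and 0 to 2 in hippocampus (without Pcm1-/- replicate 3). The median fold change was -0.0242 with lane in the cortex, and leaving out 1 library gave -0.188 to -0.0246 there, -0.180 to -0.102 for striatum and -0.236 to -0.108 for hippocampus.

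Among WT regions, 1 fit of all 18 libraries gave 25 calls for hippocampus against cortex (37.7% of all genes, against 29.8%). Leaving out 1 library or mouse gave 7 to 13 calls for striatum against cortex (7 without WT striatum replicate 2, 35.2% of all genes, or cortex replicate 2, 33.5%). It gave 9 to 19 for hippocampus against cortex (9 without cortex replicate 2, 21.2%). For hippocampus against striatum it gave 4 to 10 (5 without striatum replicate 1, 22.9%, or hippocampus replicate 1, 28.3%, and 4 without 1 WT mouse, 20.2%). Shares of all genes at the upper ends are not given here, so those counts cannot be set against them. Medians ran from 0.0242 to 0.208, 0.156 to 0.317 and -0.0128 to 0.114. Blocking on the mouse gave 18, 21 and 12 calls. The replicate block by number and DESeq2 size factors each raised the adjusted p of Aldh1l1 between hippocampus and striatum above the threshold.

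Values near 0 changed sign on leaving out 1 library. In the cortex these were Gfap (-0.0912 to 0.488), Aqp4 (-0.0381 to 0.0903), Slc1a2 (-0.0338 to 0.0435) and Aldh1l1 (-0.164 to 0.0022, and 0.0226 with lane). In the striatum they were Aldh1l1 (-0.127 to 0.00345) and Slc1a2 (-0.0425 to 0.283), for hippocampus Gfap (-0.470 to 0.0456) and Slc1a3 (-0.0242 to 0.0639), and between mutant hippocampus and striatum Slc6a11 (-0.180 to 0.0819). The causes were not tested.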
